A study of Mus musculus with 5 samples.

Results

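Alx1, Alx4, Prrx1 and Prrx2, 4 of the 27998 genes counted in the series, are paired-type homeobox genes of the head mesenchyme, and they were taken by symbol. Their UMIs (unique molecular identifiers, each standing for 1 captured transcript) were followed per cell in cranial neural crest mesenchyme, in head mesoderm and in the other cell classes of the mouse ocular area. The series holds wild-type C57BL/6J embryos at 12, 16, 20, 24 and 26 somites, 1 embryo a stage, with no treatment and no mutant. Both optic areas of an embryo were cut out by hand with a needle, dissociated in trypsin and made into 1 droplet library of transcript 3′ ends. The matrix marks its libraries by barcode suffixes 1 to 5 and the labels do not tie a suffix to a stage, so no library is given a stage here and no comparison between stages is made.

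Alx and Prrx proteins are transcription factors with a DNA-binding homeodomain, and they act in the mesenchyme that builds the face, skull and the tissue around the eye. Cranial neural crest cells leave the edge of the neural tube, migrate over the head and become mesenchyme, while head mesoderm is mesenchyme of another origin that gives head muscle and vessels. In the mouse, Alx1 and Alx4 are known for frontonasal development and Prrx1 and Prrx2 for skeletal development of the head and limbs, with overlapping roles within each pair.

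The part of each gene that defines the family is the homeobox, the 180 bases that encode the homeodomain. The 4 homeoboxes are shown 5′ to 3′ from the GENCODE transcripts (build GRCm38) because they show how close the members are to each other, and capitals mark the 18 bases of the recognition helix that hold its most conserved residues.
Alx1: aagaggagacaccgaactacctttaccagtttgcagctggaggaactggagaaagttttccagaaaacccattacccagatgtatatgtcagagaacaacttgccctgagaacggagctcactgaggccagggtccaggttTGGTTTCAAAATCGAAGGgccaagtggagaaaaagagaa
Alx4: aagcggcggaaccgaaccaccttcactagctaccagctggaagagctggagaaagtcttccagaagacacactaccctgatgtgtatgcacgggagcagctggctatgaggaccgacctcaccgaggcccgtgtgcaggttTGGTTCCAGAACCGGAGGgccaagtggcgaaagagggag
Prrx1: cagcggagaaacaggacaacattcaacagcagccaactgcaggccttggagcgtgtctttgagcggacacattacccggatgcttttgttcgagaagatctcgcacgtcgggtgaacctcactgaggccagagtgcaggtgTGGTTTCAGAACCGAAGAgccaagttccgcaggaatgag
Prrx2: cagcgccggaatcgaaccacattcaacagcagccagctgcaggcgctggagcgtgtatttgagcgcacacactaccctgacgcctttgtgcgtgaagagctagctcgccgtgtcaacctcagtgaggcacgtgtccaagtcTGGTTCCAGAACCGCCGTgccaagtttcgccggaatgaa

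The homeoboxes of Alx1 and Alx4 shared 138 of 180 bases (76.7%), and those of Prrx1 and Prrx2 shared 142 (78.9%). Between the pairs, identity ran from 60.6% (Alx1 with Prrx2) to 69.4% (Alx4 with Prrx2). In all 4 genes an intron divides the homeobox at the same place, leaving 138 bases in the first exon of the box and 42 in the next. Alx1 lies at chr10:102998707-103030215 on the minus strand, and its homeobox is in coding sequence of exons 3 and 4 (chr10:103025135-103025272 and chr10:103022264-103022305). Alx4 lies at chr2:93642384-93681339 on the plus strand, with its homeobox in exons 2 and 3 (chr2:93668528-93668665 and chr2:93675296-93675337). Prrx1 lies at chr1:163245119-163313710 on the minus strand, with its homeobox in exons 2 and 3 (chr1:163261840-163261977 and chr1:163257901-163257942). Prrx2 lies at chr2:30834972-30881251 on the plus strand, with its homeobox in exons 2 and 3 (chr2:30878454-30878591 and chr2:30879492-30879533). The libraries read 3′ ends, so the counts say nothing of the homeobox itself or of splice forms. Ext2 overlaps Alx4 on the other strand, and noncoding genes overlap Alx1 and Prrx1 on the same strand. How reads from the shared stretches were assigned is not stated, so the counts of these genes carry that uncertainty.

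The matrix held 8194 barcodes and 257637891 UMIs, with library medians from 20713 to 30922 UMIs per barcode. After 22 barcodes with over 10% mitochondrial UMIs and 66 predicted doublets (0.808%) were left out, 8106 cells remained, and 40 barcode sequences of 8154 occurred in more than 1 library. Clusters were named from marker genes, with the members and the gene lists kept out of the clustering. The classes used most were crest mesenchyme (1252 cells, 11 of them in library 5), head mesoderm (452 cells, 3 of them in library 5) and optic vesicle (2216 cells in all 5 libraries). Mesenchyme of library 5 (530 cells) passed 5 of 11 crest markers and 6 of 13 head mesoderm markers, could not be given to either class, and is reported on its own as library 5 mesenchyme. The crest marker Tfap2b was at 108 CPM (UMIs of the gene per 1000000 UMIs of the class) in crest mesenchyme, 26.3 in library 5 mesenchyme and 0.421 in head mesoderm. The head mesoderm marker Tbx1 ran the other way between the named classes, at 0.266 CPM in crest mesenchyme and 15.6 CPM in head mesoderm, and was at 0.291 CPM in library 5 mesenchyme. The eye field gene Rax was at 160 CPM in optic vesicle and at 3.69 CPM in crest mesenchyme.

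Alx1 was the member that told the mesenchyme classes apart most clearly. In crest mesenchyme it was at 183 CPM in library 1, 196 in library 2, 170 in library 3 and 177 in library 4. In head mesoderm of the same libraries it was at 17.2, 18.5, 18.3 and 19.7 CPM. The lowest crest value lay far above the highest head mesoderm value, and within each class the 4 libraries lay close together. Summed over libraries, Alx1 was 9.9-fold higher in crest mesenchyme (95% interval of the ratio of counts 8.65 to 11.4), with ratios of 10.6, 10.6, 9.26 and 9 in libraries 1 to 4.

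Alx4, the other Alx member, was lower in both classes and the gap between them was narrower. It was at 34.4, 56.9, 27.8 and 35.9 CPM in crest mesenchyme of libraries 1 to 4, against 13.2, 25.6, 20.8 and 17.8 CPM in head mesoderm. Crest was above head mesoderm in each of the 4 libraries, with a ratio of 1.34 (1.05 to 1.71) in library 3 and from 2.02 to 2.6 in the others. Over all libraries the ratio was 1.999 (1.74 to 2.31), just short of the 2-fold that the rule for a called gene asks for. Leaving out library 3 gave 2.3 and a call, leaving out library 4 or library 5 gave 2.03 and a call, and without library 1 or library 2 it stayed uncalled.

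Prrx1 was also higher in crest mesenchyme, by a smaller ratio than Alx1. It was at 125, 144, 115 and 126 CPM in crest mesenchyme of libraries 1 to 4. In head mesoderm it was at 60.6, 74.8, 50 and 42.4 CPM, lower than in crest mesenchyme in each of the 4 libraries. The ratio was 2.19 (2.02 to 2.37) over all libraries.

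Prrx2 went the other way in most libraries. It was at 130, 168, 251 and 353 CPM in crest mesenchyme of libraries 1 to 4, and at 299, 308, 354 and 332 CPM in head mesoderm. Head mesoderm stayed within a narrow range while crest mesenchyme spread widely, so the ratio of crest to head mesoderm was 0.433 (0.4 to 0.469) in library 1, 0.547 in library 2, 0.709 in library 3 and 1.06 (0.95 to 1.19) in library 4. Prrx2 was thus lower in crest in 3 of 4 libraries, and in library 4 the interval held 1. The summed ratio of 0.699 (0.673 to 0.726) did not reach 2-fold, and since the libraries differ, it describes their mixture.

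**Figure D1:**
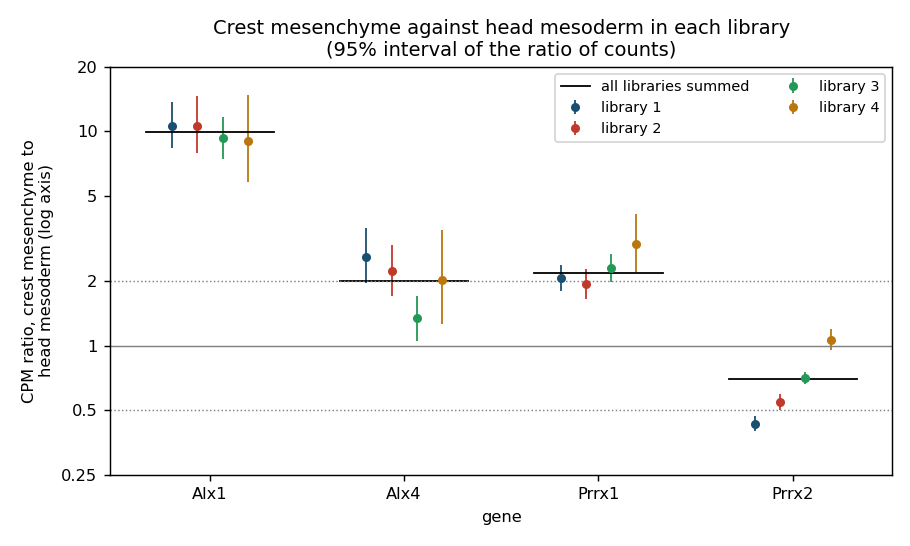
Ratio of CPM in crest mesenchyme to CPM in head mesoderm (y axis, log scale) for the 4 members (x axis); points are libraries 1 to 4 with the 95% interval of the ratio of counts, black bars are all libraries summed, and dotted lines mark 2-fold. Alx1 lies between 9 and 10.6 in every library, whereas Prrx2 runs from 0.433 to 1.06.

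These ratios were read against all genes with at least 20 CPM in either class. A gene was called when its ratio was at least 2-fold, its interval excluded 1 and every library with at least 20 cells of both classes agreed in direction. Of 5201 genes, 179 were called (3.44%), 41 of them higher in crest mesenchyme (0.788%) and 138 higher in head mesoderm (2.65%). Of the 4 members, Alx1 and Prrx1 were called, both higher in crest, and none was called higher in head mesoderm. The members' median log2 ratio was 1.06, beside -0.03 over all genes tested. The intervals cover counting error only, and this rule of size is not a test.

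Libraries 1 to 4 each hold both classes of 1 embryo, so the class sums were also tested across them in a paired fit, with edgeR's quasi-likelihood test, the library as a block and Benjamini-Hochberg adjustment over 5202 genes, a test added after the data were seen. In that edgeR test the log2 ratio of crest to head mesoderm was 3.34 (SE 0.08) for Alx1, with an adjusted p of 2.04e-07, and 1.17 (SE 0.09) for Prrx1, with an adjusted p of 0.000175. It was 0.99 (SE 0.16) for Alx4, with an adjusted p of 0.00394 by edgeR, and -0.62 (SE 0.17) for Prrx2, with an adjusted p of 0.0277. All 4 members thus passed 0.05 in this fit, 3 of them higher in crest and Prrx2 higher in head mesoderm. The same fit called 1314 genes (25.3%), 624 higher in crest (12%) and 690 higher in head mesoderm (13.3%), so a call by this test was common. Prrx2 lost its call without library 1, 2 or 3 (edgeR adjusted p of 0.1, 0.144 and 0.0915), and without the block (0.481), where 275 genes were called. The count of calls was 669, 447 and 525 without library 1, 2 or 3 and 1729 without library 4, which had 33 head mesoderm cells. The spread between these libraries includes the stage, and the classes were clustered from the same cells, on genes other than the members.

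Among the listed paired-type homeobox relatives, Pax3, a gene of crest precursors, was called higher in crest (30.7 against 0.59 CPM). Genes of the other lists were called in both directions, more of them higher in head mesoderm than in crest. Of all genes tested, 0.788% were called higher in crest and 2.65% higher in head mesoderm. The lists were chosen with earlier results of these data known, so their counts are a description. Of 12 periocular mesenchyme genes 8 were tested, and the retinoic acid receptor gene Rarg and the forkhead gene Foxd2 were higher in crest (2.76-fold and 2.09-fold). Tgfb2, Foxd1, Foxf2 and Eya2 of the same list were higher in head mesoderm, by 20-fold for the growth factor gene Tgfb2 and by 3.51-fold to 3.91-fold for the other 3. Of 14 matrix genes 8 were tested, none was called higher in crest, and Has2, Vcan, Col3a1 and Fbn1 were called higher in head mesoderm, by 2.13-fold to 3.89-fold. Among jaw and pharyngeal arch genes, Msx1, a homeobox gene of growing mesenchyme, was 2.27-fold higher in head mesoderm. Crabp2, a retinoic acid binding protein gene (2.09-fold), and Gas1, a Hedgehog co-receptor gene (2.43-fold), were called higher in crest, out of 3 tested genes of the retinoic acid list and 4 of the Hedgehog list. None of the 5 BMP genes tested and neither of the 2 FGF genes tested was called, and no listed Hox gene reached 20 CPM. Outside the members and lists, the largest ratios toward crest were those of the class markers Tfap2b (255-fold) and Sox10 (82-fold). Toward head mesoderm the largest belonged to genes that were not markers. These were Acta2, smooth muscle actin (97.3-fold), Lmx1a (75.7-fold), Tm4sf1 (58.2-fold) and Fam162b (57.4-fold), followed by the marker Osr1 (46.4-fold).

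Library 5 mesenchyme carried all 4 members at levels near or above those of crest mesenchyme. Alx1 was at 161 CPM (153 to 169), just under the crest range of libraries 1 to 4 and far above head mesoderm. Alx4 was at 70 CPM (65 to 75.3), above every crest value of the other libraries, of which the highest was 56.9. Prrx1 was at 150 CPM (142 to 157), near the highest crest value of 144, and Prrx2 at 334 CPM (323 to 345), inside the crest range. Tfap2b per Alx1 UMI was 0.164 in these cells, below the 0.343 to 0.839 of crest mesenchyme in libraries 1 to 4 and above the 0 to 0.0435 of head mesoderm. Counted as crest, these cells moved the summed ratio of Alx1 to 9.67, and counted as head mesoderm they moved it to 2.14.

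Among the crest libraries, Prrx2 varied most of the 4 members and Alx1 least. The highest of the 4 library values was 1.16 times the lowest for Alx1, 1.25 times for Prrx1, 2.05 times for Alx4 and 2.72 times for Prrx2. Over the 4807 genes with a mean of at least 20 CPM the median of that quotient was 1.38. Prrx2 exceeded 97.8% of those genes, Alx4 93.5%, Prrx1 28.2% and Alx1 10.8%. Embryo, stage, dissection and library cannot be told apart in these differences.

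The members shared little of their level with the ocular epithelia and blood, apart from Prrx2. In optic vesicle cells, the future retina and pigment layer, Alx1 was at 2.37 CPM, Alx4 at 0.619 and Prrx1 at 2.29, all below head mesoderm. Prrx2 was at 20.2, 29.3, 32.2, 39.6 and 27.2 CPM in optic vesicle of libraries 1 to 5 and at 324 CPM in head mesoderm. Erythroid cells of the same libraries, which should lack the gene and so show the free RNA in the droplets, had Prrx2 at 0.742 to 1.59 CPM. Prrx2 was therefore above the erythroid level in the optic vesicle of every library.

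The same difference appeared in the share of cells with a UMI. Prrx2 was found in 1085 of 2216 optic vesicle cells (49%, exact Clopper-Pearson 95% interval 46.9 to 51.1%, median depth 30158 UMIs) and in 4.35% of erythroid cells (2.19 to 7.65%, median depth 42576 UMIs). With each cell thinned to 10000 UMIs the shares were 22.8% and 0.791%. Alx1 was found in 6.27% of optic vesicle cells, Prrx1 in 6.45% and Alx4 in 1.9%, against 1.98%, 1.98% and 0.791% of erythroid cells. UMIs of Prrx2 stood at 13.2 per Prrx1 UMI in optic vesicle cells, 5.58 in head mesoderm and 1.78 in crest mesenchyme. Per Alx1 UMI, they stood at 12.7, 17.7 and 1.25. UMIs of 3′ ends are not scaled by transcript length, so these quotients are set against each other across classes and are not relative amounts of the genes. Whether Prrx2 UMIs in optic vesicle droplets came from the cells themselves or from mesenchyme was not tested further.

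Other classes kept Prrx2 above the remaining members. In surface ectoderm, the layer that forms lens and cornea epithelium, Prrx2 was at 8.39, 17.2, 19.8, 24.2 and 50.9 CPM in libraries 1 to 5. Library 5 was highest there, with an interval of 40.2 to 63.7 CPM that cleared those of the other 4 libraries, and it rested on 77 UMIs in 72 cells. In endothelium Prrx2 was at 12.5 CPM, with 23.1 in library 1 and 7.19 to 14.5 in the others. In forebrain outside the optic vesicle Prrx2 was at 11.1 CPM and Alx1 at 1.81. Prrx1 had its highest level among the named epithelial and blood classes in that forebrain class, with 8.43, 4.94, 3.66 and 5.51 CPM in libraries 1 to 4. In the optic vesicle of those libraries it was at 1.52, 2.07, 1.5 and 2.04 CPM, lower in each.

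**Figure D2:**
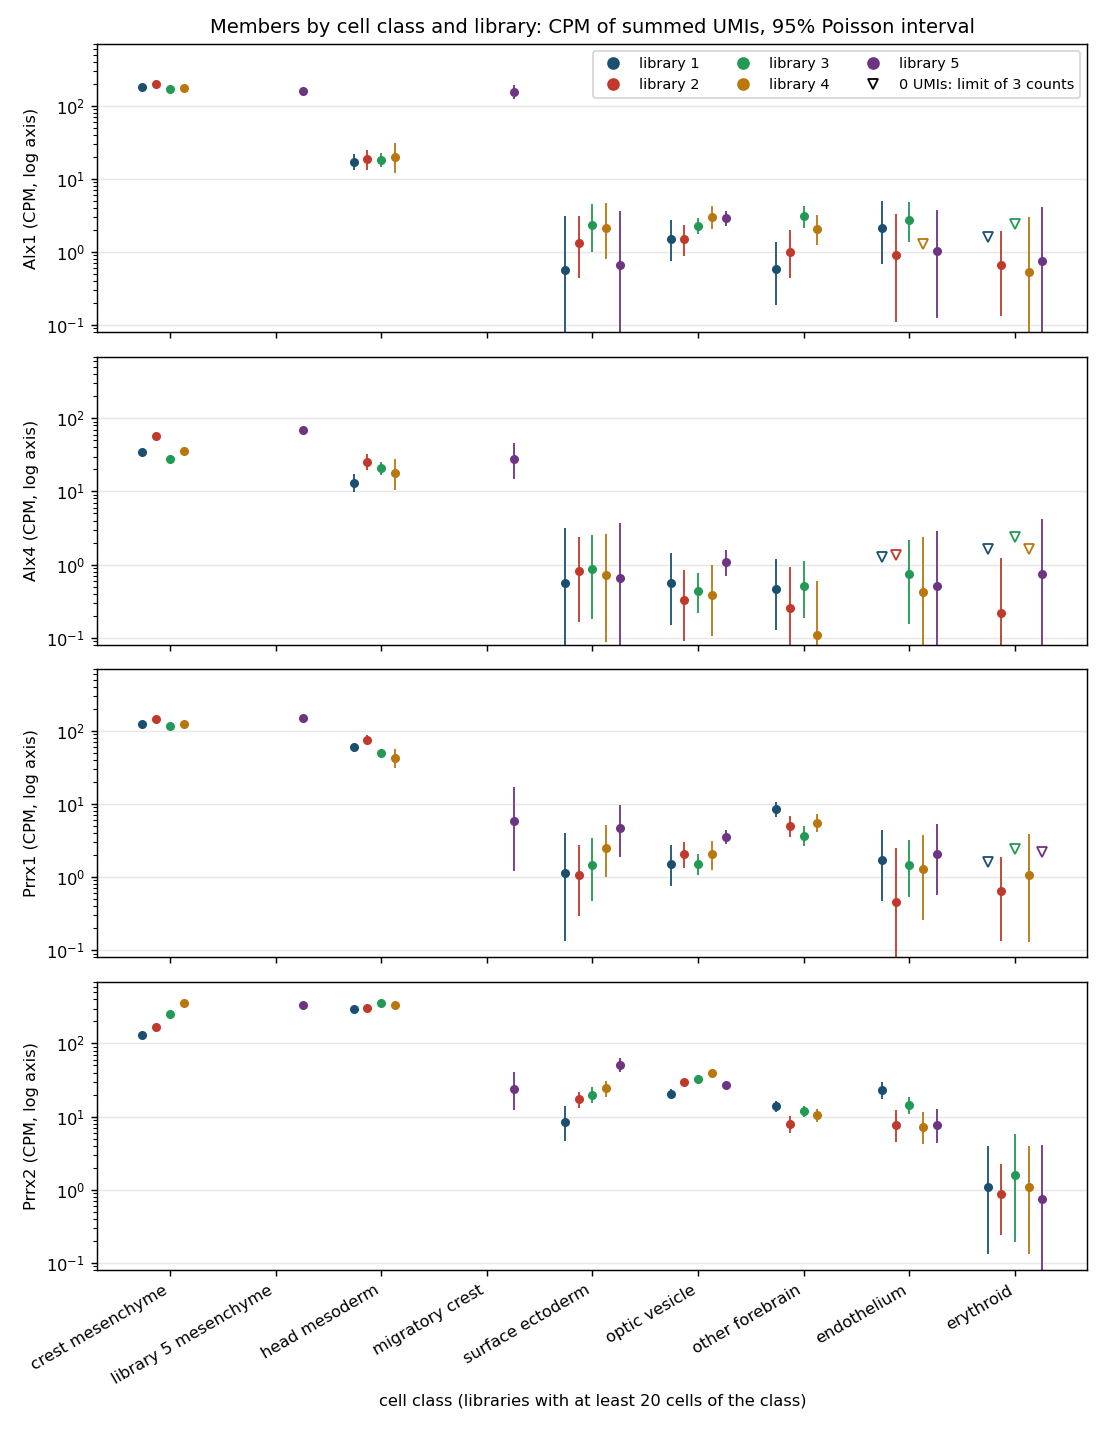
CPM of summed UMIs (y axis, log scale) of each member in each cell class (x axis), 1 point per library with at least 20 cells of the class and its 95% Poisson interval; open triangles mark 0 UMIs at the limit that 3 counts set. Alx1 and Alx4 drop from mesenchyme to all epithelial and blood classes, while Prrx2 stays between 7.19 and 50.9 CPM in surface ectoderm, optic vesicle, forebrain and endothelium.

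Ordered by level, Alx1 ran from crest mesenchyme (181 CPM) and library 5 mesenchyme (161) through migratory crest (151, 120 to 187) to head mesoderm (18.3) and then to the remaining named classes with at least 20 cells in a library, at 2.37 CPM or less. Migratory crest did not differ from library 5 mesenchyme beyond its interval. Alx4 was highest in library 5 mesenchyme (70 CPM), followed by crest mesenchyme (38.4), migratory crest (25.7, 14.1 to 43.1) and head mesoderm (19.2), and the interval of migratory crest held the levels on both sides of it. Prrx1 ran from library 5 mesenchyme (150) and crest mesenchyme (127) to head mesoderm (58.1), with migratory crest (5.51, 1.14 to 16.1) and forebrain (5.47) not separable. Prrx2 was highest in library 5 mesenchyme (334, 323 to 345) and head mesoderm (324, 314 to 335), whose intervals overlapped, then crest mesenchyme (227). Optic vesicle (30.1), surface ectoderm (22) and migratory crest (22, 11.4 to 38.5) followed, and the interval of migratory crest held both neighbours.

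Migratory neural crest, the class marked by Sox10, had Alx1 at a mesenchyme level with little Prrx1 or Prrx2 in library 5. Of its 32 cells 31 were in that library, where Alx1 was at 156 CPM (124 to 195), close to the 161 CPM of library 5 mesenchyme. Prrx1 was at 5.87 CPM there (1.21 to 17.1) and Prrx2 at 23.5 CPM (12.1 to 41). Library 5 mesenchyme had 150 and 334 CPM of these genes. Alx1 UMIs outnumbered Prrx1 UMIs 26.7 to 1 in migratory crest of library 5, and 1.08 to 1 in its mesenchyme. Prrx1 rested on 3 UMIs. Twist1, a transcription factor of mesenchyme, had 0 UMIs in the 32 cells and Sox10 was at 325 CPM. How this class was bounded decided which libraries it held. With predicted doublets kept in the clustering, 130 cells took the same name, 33, 9, 30, 26 and 32 of them in libraries 1 to 5, and only 4 of the 130 were predicted doublets. Of the rest, 94 were crest mesenchyme in the clustering used elsewhere here. In that wider class Alx1 was at 173, 241, 173, 141 and 148 CPM in libraries 1 to 5. Prrx1 was at 53, 50.3, 66.3 and 34.4 CPM in libraries 1 to 4 and at 5.49 CPM in library 5. Prrx2 was at 68.3, 47.6, 100 and 60.1 CPM in libraries 1 to 4 and at 21.9 CPM in library 5. The low Prrx1 level was thus seen in library 5, and in the other 4 libraries Prrx1 and Prrx2 were below their crest mesenchyme levels and above those of library 5, with intervals of Prrx2 that overlapped between libraries 2 and 5.

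Crest mesenchyme itself held cells with Sox10 UMIs, and the members were compared between those 202 cells and the 1045 without after thinning each cell to 10000 UMIs, a split added after the data were seen. Alx1 differed little over all libraries, at 183 CPM in cells with and 180 CPM in cells without it (ratio 1.02, 0.958 to 1.08). Prrx2 was at 148 against 244 CPM over all libraries, but the libraries differed. Its ratio was 1.14 (1.02 to 1.27) in library 1 and 0.975 (0.839 to 1.13) in library 2. It was 0.671 (0.591 to 0.758) in library 3 and 0.274 (0.217 to 0.342) in library 4. Prrx1 showed ratios of 0.945, 0.912 and 0.863 in libraries 1 to 3, all with intervals that held 1, and of 0.367 (0.258 to 0.506) in library 4. Library 4 had 25 cells with Sox10 UMIs, so its values rest on few cells. Alx4 had ratios of 0.635 (0.496 to 0.806), 0.92 (0.702 to 1.19), 0.493 (0.31 to 0.749) and 0.587 (0.338 to 0.953) in libraries 1 to 4. It was thus below 1 in each library, with an interval that held 1 in library 2 only.

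**Figure D3:**
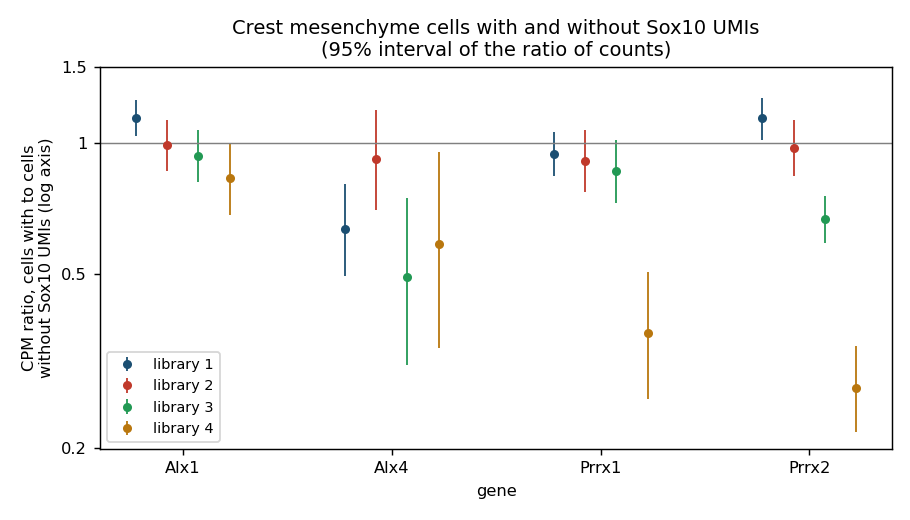
Ratio of CPM in crest mesenchyme cells with Sox10 UMIs to CPM in cells without (y axis, log scale) for the 4 members (x axis), with 1 point per library and its 95% interval. Alx1 stays between 0.833 and 1.14 in the 4 libraries, and Prrx1 and Prrx2 of library 4 lie at 0.367 and 0.274.

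Clustering crest mesenchyme again without the members and lists gave 5 sub-clusters, of which 4 were nearly single libraries. The exception was a sub-cluster of 63 cells, 33 in library 3 and 24 in library 4, with Sox10 at 137 CPM. Its leading genes were, in order, the eye and brain gene Pax6, Sox10, Phactr1, Dpysl3, Fam210b and Ngfr. Of these, Sox10, Phactr1 and Ngfr were also among the leading genes of migratory crest. This sub-cluster had Alx1 at 157 CPM, a little below the other sub-clusters (176 to 192), and the other 3 members were also lowest there. Alx4 was at 14 CPM against 29 to 58.6, Prrx1 at 61 against 122 to 147, and Prrx2 at 80.9 against 131 to 368. Doublets of crest and neuroepithelium that were not predicted as such were not tested for in this sub-cluster. How many of its cells also had Sox10 UMIs, or took the migratory crest name with doublets kept, was not counted.

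Combinations were counted per cell after thinning each cell to 10000 UMIs, which left out 5 crest and 6 head mesoderm cells. In crest mesenchyme, 914 of 1247 cells (73.3%, 70.7 to 75.7%) had UMIs of at least 1 Alx and at least 1 Prrx member, 8.26% of Alx members only, 16.1% of Prrx members only and 2.33% of none. In head mesoderm the order turned over, with 22% of 446 cells holding both kinds, 1.35% Alx only, 73.3% Prrx only and 3.36% none. Library 5 mesenchyme, with 81.1% both and 15.9% Prrx only, lay beside crest mesenchyme. Library by library, the share with both kinds was 71.4, 71.9, 72.9 and 76.4% in crest mesenchyme and 17.3, 23.1, 25 and 24.2% in head mesoderm, so the classes did not overlap.

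**Figure D4:**
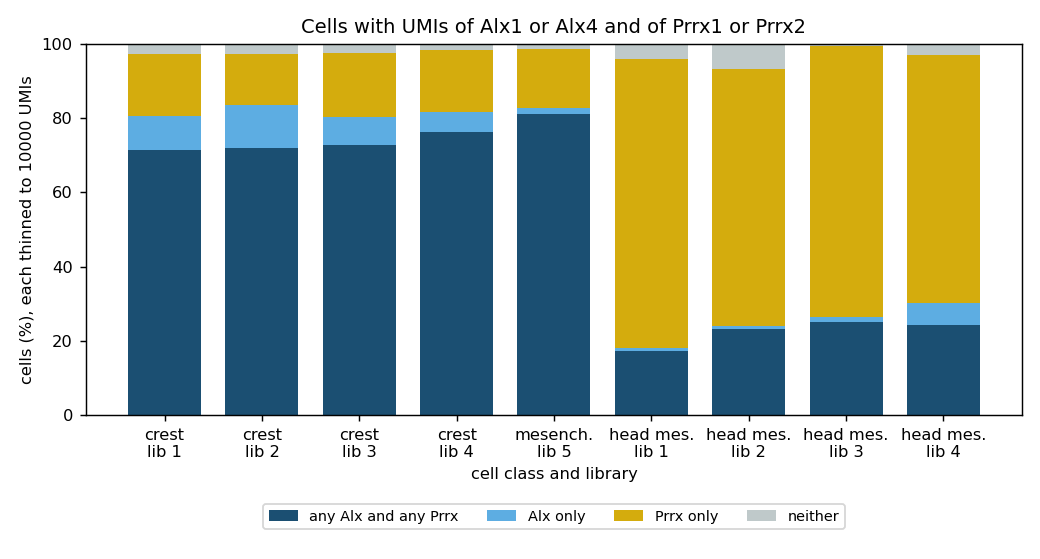
Share of cells (y axis, percent) with UMIs of any Alx and any Prrx member, of Alx only, of Prrx only or of neither, after thinning to 10000 UMIs, in each mesenchyme class and library (x axis). Both kinds occur together in 71.4 to 81.1% of crest and library 5 mesenchyme cells and in 17.3 to 25% of head mesoderm cells.

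Of the 16 possible patterns, the commonest in crest mesenchyme was Alx1 with Prrx1 and Prrx2 (30.2%), followed by all 4 members (12.2%) and Alx1 with Prrx2 (10.8%). In head mesoderm the commonest was Prrx2 alone (42.6%), then Prrx1 with Prrx2 (29.8%), and all 4 members occurred in 6 cells (1.35%). In library 5 mesenchyme all 4 members occurred in 22% of cells. Prrx1 without Prrx2 was rare in head mesoderm, at 6 of 446 cells over the patterns with or without Alx UMIs, and Prrx2 was there in 93.9% of cells.

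Detection of single members after thinning was 74.1% for Alx1, 30% for Alx4, 66.6% for Prrx1 and 75.9% for Prrx2 in crest mesenchyme, and 93.9, 61.4, 91.9 and 95.1% before thinning. In head mesoderm it was 12.8, 12.6, 40.6 and 93.9% after thinning, and 33, 28.8, 65.5 and 98.2% before. The thinned shares come from 1 seeded draw, and the share expected over all draws for Alx1 in head mesoderm was 15.5%. Crest cells had a median of 32420 UMIs and head mesoderm cells of 24898, which is why the thinned shares are the ones compared. In erythroid cells the thinned shares of the 4 members were 0.395 to 1.19%.

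Within crest mesenchyme the members were found together about as often as their separate shares give. The share of cells with both genes of a pair, divided by the product of the separate shares, lay between 0.954 (Alx4 with Prrx2) and 1.05 (Alx1 with Prrx1, and Prrx1 with Prrx2) over the 6 pairs. Every pair held a gene found in most crest cells, which limits how far the quotient can rise above 1. The quotient also does not follow levels, and those of both Prrx genes were higher in crest cells with Alx UMIs, as given below. In library 5 mesenchyme the 6 quotients lay between 1 and 1.04. In head mesoderm Alx1 with Alx4 gave 1.26 on 9 cells and Alx4 with Prrx1 gave 1.23 on 28 cells. In single libraries the quotients ran from 0.91 to 1.09 in crest mesenchyme and from 0.6 to 1.51 in head mesoderm, where they rest on as few as 1 cell with both genes.

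The spread over cells within a library was measured as the variance of the thinned UMIs over their mean, which is 1 when every cell has the same chance of a UMI. In crest mesenchyme of libraries 1 to 4 it was 1.07 to 1.23 for Alx4, 1.22 to 1.38 for Prrx1 and 1.45 to 1.80 for Alx1. For Prrx2 it was 1.36 in library 1 and 2.37 to 2.60 in the other 3 libraries, where single cells reached 12 to 18 UMIs. In head mesoderm Prrx2 was more even, at 1.19 to 1.46 in libraries 1 to 3 and 2.03 on 33 cells in library 4.

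Crest cells with Alx UMIs were then set against crest cells without, to see what else went with Alx detection. The split gave 1017 cells with at least 1 UMI of Alx1 or Alx4 after thinning and 230 with none, at median depths of 32127 and 33884 UMIs. Of the 4929 genes tested beside Alx1 and Alx4, 0 were called in either direction (0%), and 0 reached 2-fold over all libraries. Before thinning most crest cells had Alx1 UMIs, so the cells without include cells that lost theirs in thinning. The split therefore cannot set apart cells that lack Alx transcripts, and no conclusion on such cells is drawn from the count of 0. The farthest were Dqx1, 1.55-fold higher in cells with Alx UMIs, and Cxcl12, a chemokine gene, 1.92-fold higher in cells without. Prrx2 was at 241 CPM in cells with and 165 CPM in cells without Alx UMIs (ratio 1.46, 1.38 to 1.55). Prrx1 was at 133 against 101 CPM (1.32, 1.22 to 1.42), and both Prrx genes were higher in cells with Alx UMIs in 4 of 4 libraries. Twist1 had a ratio of 1.33 in the same direction in 4 of 4 libraries. The crest marker Tfap2b was at 107 against 111 CPM.

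Head mesoderm cells with Alx UMIs were set against those without in the same way. The 104 head mesoderm cells with UMIs of Alx1 or Alx4 after thinning had Tfap2b at 0.34 CPM (1 UMI) and the 342 cells without had it at 0.45 CPM (4 UMIs), against 108 CPM in crest mesenchyme. Sox10 was at 0.34 and 0.338 CPM. Over all libraries, Crabp1 and Twist1, also crest markers, were higher in the cells with Alx UMIs. Crabp1 was at 257 against 191 CPM (ratio 1.35, 1.23 to 1.47), with ratios of 1.38, 1.32 and 0.982 in libraries 1 to 3, and Twist1 at 64.3 against 41.8 CPM (1.54, 1.29 to 1.84), with ratios of 1.23, 1.66 and 1.6. Of the head mesoderm markers, Tbx1 had a ratio of 0.311 (0.152 to 0.573) in library 1, which held most of its UMIs, and of 0.756 and 0.634 in libraries 2 and 3, with intervals that held 1. Osr1 had ratios of 1.18, 0.666 and 0.464 in libraries 1 to 3, and its interval excluded 1 in library 3 only (0.236 to 0.84). Prrx1 was at 65 against 55.7 CPM (1.17, 0.982 to 1.38) and Prrx2 at 343 against 319 CPM (1.08). This split, too, was added after the data were seen, and its cells without Alx UMIs also include cells that lost theirs in thinning.

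Over 34 class-by-library groups of at least 20 cells, the genes whose log2(CPM + 5) ran most like each member were found among 8046 genes. For Alx1 they were Foxd2 (Pearson r 0.959), Alx4 (0.953), 9130410C08Rik, Ednra and Nkd2. For Alx4 they were Foxd2 (0.982), Ednra, the endothelin receptor gene (0.975), 9130410C08Rik, Pdgfra and Alx1. For Prrx1 they were Pdgfra, a growth factor receptor gene of mesenchyme (0.980), Tmem119, Twist1, Pdgfrb and Tnfaip6, and for Prrx2 they were Pdlim4 (0.947), Clmp, Dixdc1, Mrc2 and Mfap4. Twist1 and Pdgfra are also markers that named the crest class, and the groups share libraries, so the correlations are a description of these groups. Alx4 was the second most alike gene to Alx1, whereas Prrx2 ranked 27th in likeness to Prrx1 (0.895) and 45th in likeness to Alx1 (0.747).

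Inside crest mesenchyme the same measure over 6 sub-cluster-by-library groups and 5608 genes gave other genes. Elovl6, Man1b1, Trio, Zfp322a and Bloc1s5 were most like Alx1, and Sall4, Stag2, Lima1, Tril and Alg2 most like Alx4. Cdc42ep5, Elovl6, Scamp3, Tmem119 and Prex2 were most like Prrx1, and Cnpy2, Crnde, Igfbp4, Rhod and Clmp most like Prrx2. All of these correlations were at least 0.966, and with 6 groups that are close to single libraries they order libraries more than cells. Tmem119 for Prrx1 and Clmp for Prrx2 were the genes on both lists of their member.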

How the data were processed

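Droplet 3′ libraries of the ocular area, 1 per embryo, were deposited by the authors as 1 matrix of raw UMI counts. Per the submitters' processing notes the tool was Cell Ranger and the build mm10 (GRCm38), with no version or setting stated. Counts were used as deposited. Barcodes with under 1000 genes (0) or over 10% mitochondrial UMIs were left out, as were doublets called by Scrublet per library (expected share 6%). Cells were scaled to 10000 UMIs and clustered (scanpy 1.11.5, 2000 variable genes, 30 components, 15 neighbours, Leiden resolution 1) without the members and listed genes. A cluster took a class name when at least 3 markers were 2-fold higher there than in other cells weighted to the same library make-up, a weighting set after the data were seen. Clusters with Malat1 below 0.33 of the other cells' level stayed unnamed. Clusters whose shares of crest and head mesoderm markers lay within 0.1 were left unresolved. The comparison rule and the thinning were tested on simulated data. Class sums of libraries 1 to 4 were tested with edgeR 4.0.16 (quasi-likelihood, TMM scaling, at least 20 CPM in either class), with the library as a block, and that fit too was tested on simulated data. Named were the members, their 5 most alike genes, the largest ratios and every listed gene called. The members and lists were chosen with earlier results of these data known. Intervals are exact, at 95%. Results of some listed and marker genes are not reported here.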

Additional observations from a re-analysis of the deposited data

How the results depend on the processing

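The main limits are 1 embryo a stage, libraries that are not tied to stages, class names rebuilt from markers, and the unresolved mesenchyme of library 5. Precision is set by depth, which moved every share of cells with a UMI. Of 179 values under alternative settings, 127 counted as the same. A ratio did so when its direction and call held, and a share of cells when it lay inside the main interval. A count of genes did so when it stayed near the main count. A further 40 values, all of them shares or counts, moved. Among the ratios 6 gained a call, 5 lost it and 1 changed direction. The ratio of Alx1 between crest mesenchyme and head mesoderm stayed called in every setting, that of Prrx1 in every setting but 1, and Prrx2 stayed below 1 and uncalled in all. Alx4 was called, at 2.003 with libraries weighted equally, 2.02 with doublets kept and 2.32 with library 5 mesenchyme counted as crest. With library 5 mesenchyme counted as head mesoderm, a setting added after the data were seen like the one before, Alx4 turned to 0.898 and Prrx1 fell to 1.26 and lost its call. Leaving out each library in turn gave 9.58 to 10.1 for Alx1, 1.78 to 2.3 for Alx4, 2.09 to 2.26 for Prrx1 and 0.567 to 0.768 for Prrx2, and 162 to 233 called genes. With a minimum of 50 CPM 73 genes were called, since fewer genes were tested. In the paired edgeR fit with the library as a replicate block the fold of crest over head mesoderm was 10.1, 1.99, 2.25 and 0.652 for Alx1, Alx4, Prrx1 and Prrx2, and with no replicate block it was 0.721 for Prrx2, which lost its call, and 275 genes were called in place of 1314. Leaving out each of libraries 1 to 4 from the paired fit gave 9.76 to 10.4, 1.78 to 2.34, 2.14 to 2.38 and 0.569 to 0.742, and 447 to 1729 called genes.

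Shares of cells in crest mesenchyme for Alx1, Alx4, Prrx1 and Prrx2 were 52.8, 18.4, 43.4 and 58.5% at 5000 UMIs, 83.8, 39.3, 80.7 and 84.7% at 15000 UMIs, and 93.9, 61.4, 91.9 and 95.1% with no thinning. In head mesoderm they were 9.29, 7.74, 27.2 and 80.8%, then 24.2, 20.5, 49.5 and 97.1%, and then 33, 28.8, 65.5 and 98.2%. Leaving out each library gave ranges in crest mesenchyme of 73.8 to 74.4%, 26.3 to 33.2%, 65.1 to 68% and 70.5 to 80.5%, and in head mesoderm of 12.1 to 13.9%, 11.7 to 14.5%, 40 to 41.2% and 92.4 to 94.7%. Cells with both an Alx and a Prrx member were 49 and 14.6% of crest and head mesoderm cells at 5000 UMIs, 85.7 and 40.1% at 15000 UMIs, and 37.7 and 4.04% with at least 2 UMIs asked of a gene. Leaving out each library gave 72 to 73.8% and 20.3 to 24.3%. The count of genes called between crest cells with and without Alx UMIs was 0 in the other settings and 0 to 1 with a library left out, the 1 being Ptcra without library 4.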

Other observations

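A cluster of 195 cells was left without a name because its Malat1 level was low, and its first leading gene was the crest marker Crabp1. Its cells had a median of 13725 UMIs. Alx1 was at 160, 182, 199 and 288 CPM in these cells of libraries 1 to 4, on 70, 96, 183 and 242 UMIs. In crest mesenchyme it was at 183, 196, 170 and 177 CPM. The values were thus lower in libraries 1 and 2 and higher in libraries 3 and 4, with the widest gap in library 4. No interval was set on these differences. Alx4 was at 8.33 CPM (24 UMIs), against 38.4 CPM in crest mesenchyme, and Prrx1 at 62.5 against 127 CPM. Prrx2 was at 145 against 227 CPM. The cluster thus held 26 Alx1 UMIs per Alx4 UMI, where crest mesenchyme held 4.71. By library the quotient was 23.3, 9.6, 61 and 48.4 in libraries 1 to 4, on 3 to 10 Alx4 UMIs each, against 5.31, 3.44, 6.11 and 4.94 in crest mesenchyme. Twist1 was at 20.1 against 81.7 CPM, and Malat1, a nuclear RNA, at 152 against 2491 CPM. The part of the low Malat1 level in the differences between members was not tested.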
